A study of Homo sapiens and Mus musculus with 16 samples.

Results

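The cluster of the sister microRNAs hsa-miR-221 and hsa-miR-222 was followed here together with the mRNA of CDKN1B, which encodes the cell cycle inhibitor p27. The members were taken by name. They were the rows miR-221 and miR-222 in the microRNA (miRNA) tables, without the star strands, and the CDKN1B row of the mRNA table. The human cluster thus gave 2 of the 385 miRNAs listed in either SK-HEP-1 table, the mouse cluster 2 of the 305 in the BNL CL.2 table, and CDKN1B 1 of the 22314 mRNAs.

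The human line SK-HEP-1, an established liver cancer line, and the mouse liver line BNL CL.2 were given DMSO (untreated, U) or 0.5 mg/ml AcFBE, an ethanol extract of the fruiting body of the fungus Antrodia cinnamomea (treated, T). RNA was taken after 2 or 4 h, which gave the conditions 2U, 2T, 4U and 4T. SK-HEP-1 small RNA was sequenced in a first batch on a SOLiD 3 and in a second batch on a SOLiD 5500xl, with 1 library per condition in each, so that n = 2 per condition. BNL CL.2 small RNA (4 libraries) and SK-HEP-1 mRNA (4 libraries) had 1 library per condition and no replicate. Each line is a single cell line, whose cultures stand for one source of cells. Batch, sequencer and culture cannot be told apart.

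MicroRNAs are cut from a hairpin transcript, and one strand of the hairpin is loaded into the silencing complex. The bases near its start, called the seed, pair with sites in the 3′ UTR of target mRNAs and lower their stability and translation. miR-221 and miR-222 come from neighbouring hairpins of a single host transcript and are often high in liver cancer, where CDKN1B is their best known target. p27 binds and blocks cyclin-dependent kinases, and so holds cells before S phase.

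Both mature strands are shown because their shared start makes them one seed family. Capitals mark the seed, bases 2 to 8 (RefSeq, positions on GRCh37, minus strand).
miR-221, chrX:45605608-45605630: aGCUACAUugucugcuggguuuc
miR-222, chrX:45606442-45606462: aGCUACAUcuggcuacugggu
The first 8 bases were identical and the bases after them differ, by which reads of 16 bases or more can be told apart. Of 2370 human mature miRNAs in the RefSeq table, these 2 alone carried the seed. The hairpins MIR221 (chrX:45605585-45605694) and MIR222 (chrX:45606421-45606530) both lie in intron 1 of the host gene MIR222HG, with 726 bases between them. Sequences of the mouse strands were not used here.

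CDKN1B (chr12:12838432-12875303, plus strand) has a 3′ UTR of 1342 bases in the canonical transcript. It holds 2 sites of the 8mer type, ATGTAGCA, which pairs with the whole seed and has an A opposite the first base of the miRNA. They are shown because they link the members. Capitals mark the 7 bases that face the seed.
CDKN1B, 3′ UTR position 201, chr12:12874148-12874169: tctaaaagcgttggATGTAGCa
CDKN1B, 3′ UTR position 274, chr12:12874221-12874242: agtttttaccttttATGTAGCa
An 8mer was present in 655 of 19761 annotated 3′ UTRs (3.31%), and 2 or more were present in 32 (0.162%). A match of letters is a description and not evidence of binding.

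The labelled tissue was checked in the mRNA libraries. Of 10 hepatocyte markers, 2 were above 0 FPKM (fragments per kilobase of transcript and 1000000 reads) in any library. SERPINA1, alpha-1 antitrypsin, stood at 18.7, 17.0, 13.8 and 8.59 FPKM in 2U, 2T, 4U and 4T, and ALB (albumin), APOB and HNF4A were listed at 0 in all 4. All 6 endothelial markers were also listed at 0. Of 5 mesenchymal markers, VIM (vimentin), a filament protein, ranged from 6465 to 13625 FPKM and THY1, a surface protein, from 25.5 to 55.6. CD44, a hyaluronan receptor, was listed at 0 in 2U and 2T and stood at 196 and 198 FPKM in 4U and 4T. The collagen gene COL1A1 was at 0.271 FPKM in 4T and listed at 0 in the other 3 libraries, and COL1A2 was listed at 0 in all 4. miR-122, the hepatocyte miRNA, had 0 to 70 reads per SK-HEP-1 library and at most 2 per BNL CL.2 library. miR-126, known from endothelium, had 199 to 1472 reads in 7 of the 8 SK-HEP-1 libraries and was listed at 0 in 4U of the second batch.

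Quality reads per library numbered 7131622 to 21069453 for SK-HEP-1, against 5933784 to 10561902 for BNL CL.2. Levels are given as RPM, reads per 1000000 quality reads. The smallest count above 0 in the tables was 2, and 3 reads, the most that a count of 0 allows, corresponded to 0.142 to 0.506 RPM. miRNA reads are here the sum of the listed miRNA rows, and the study's supplement gives larger totals mapped to miRBase for most libraries. So counted, they made up 2.65 to 12.4% of quality reads in untreated SK-HEP-1, 1.23 to 2.91% in treated SK-HEP-1 and, for BNL CL.2, 9.61 to 11.3%. Such a share is relative, so less miRNA and more of other reads cannot be told apart. Amounts per cell were not measured in these bulk samples.

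miR-221 was the more abundant member in SK-HEP-1. Its first-batch reads were 869 for 2U (122 RPM), 129 for 2T (16.8 RPM), 1892 for 4U (161 RPM) and 372 for 4T (40.5 RPM). Its second-batch reads were 2861 for 2U (136 RPM), 5846 for 2T (344 RPM), 1370 for 4U (67.8 RPM) and 83 for 4T (5.88 RPM). The untreated libraries therefore lay within 67.8 to 161 RPM, while the treated libraries ran from 5.88 to 344 RPM and enclosed the untreated range. The mean was 122 ± 39.2 RPM untreated and 102 ± 162 RPM treated (SD, n = 4 each, both times pooled). By mean untreated level, miR-221 stood at rank 46 of the 196 miRNAs tested.

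miR-222 was scarcer and moved differently. Its first-batch reads were 40 for 2U, 10 for 2T, 46 for 4U and 44 for 4T, or 5.61, 1.30, 3.90 and 4.80 RPM. Those in the second batch were 123, 5, 561 and 224, or 5.84, 0.294, 27.8 and 15.9 RPM. Libraries of the second batch at 4 h were the high ones, treated and untreated alike, and the treated range (0.294 to 15.9 RPM) overlapped the untreated range (3.90 to 27.8 RPM). The mean was 10.8 ± 11.4 RPM untreated and 5.57 ± 7.14 RPM treated (SD, n = 4 each). Its rank was 114 of 196.

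The passenger strand of the miR-221 hairpin, miR-221*, is the strand that is mostly discarded. It had 45, 13, 51 and 9 reads in 2U, 2T, 4U and 4T of the first batch, against 38, 7, 40 and 24 in the second. On the RPM scale the untreated libraries ran from 1.80 to 6.31 and the treated libraries from 0.412 to 1.70, so that the groups did not overlap. This held for 31 of the 196 tested miRNAs (15.8%). miR-222* had 3 to 5 reads in 3 SK-HEP-1 libraries and was listed at 0 in the other 5, and it had 5 and 3 reads in 4U and 4T of BNL CL.2 and was listed at 0 in 2U and 2T.

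**Figure D1:**
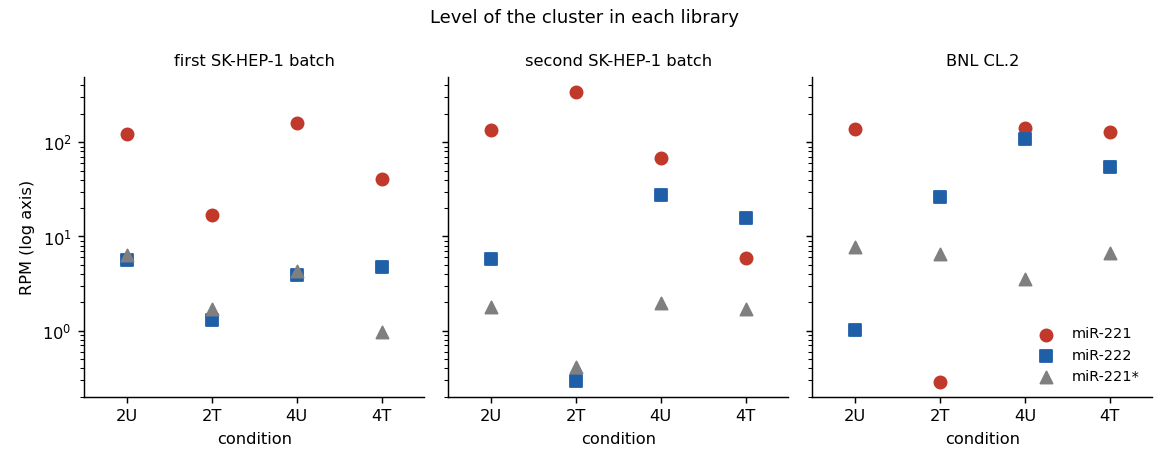
RPM (log axis) of miR-221, miR-222 and miR-221* in each of the 12 libraries, 1 point per library, with the conditions on the horizontal axis and 1 panel for each SK-HEP-1 batch and for BNL CL.2. miR-221 ranges from 5.88 to 344 RPM in the second SK-HEP-1 batch and from 0.284 to 141 RPM in BNL CL.2, whereas miR-221* stays within 0.412 to 7.75 RPM.

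Whether AcFBE lowered the cluster was asked first in pairs of libraries from the same batch and time. In the first batch, treated miR-221 was 0.138 of untreated at 2 h (95% counting interval 0.113 to 0.166) and 0.252 at 4 h (0.225 to 0.282). In the second batch it was 2.53 at 2 h (2.42 to 2.65) and 0.0867 at 4 h (0.0686 to 0.108). It was thus lower in 3 of 4 pairs and higher in the second batch at 2 h, and each of these intervals, which cover counting error only, excluded equality. A fall to 50% or less was common, and in the first batch took in 80.3% of miRNAs at 2 h and 76.5% at 4 h, as against 65.2% and 57.5% for the second. A rise of 2-fold or more was seen in 3.37% of 178 miRNAs in the second batch at 2 h, and miR-221 was among them.

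miR-222 was 0.232 of untreated at 2 h (0.103 to 0.472) and 1.23 at 4 h (0.794 to 1.90) in the first batch. Second-batch values were 0.0504 at 2 h (0.0161 to 0.121) and 0.572 at 4 h (0.487 to 0.669). Both 2 h pairs were lower and at 4 h the first batch showed no difference beyond counting error. At 2 h of the second batch the sisters sat at opposite ends of the table, with 97.8% of miRNAs showing a lower log2 ratio than miR-221 (1.34) and 3.37% a lower one than miR-222 (-4.31), beside a median of -1.21. At 4 h of that batch miR-221 (-3.53) was the low one, with 0.599% of 167 miRNAs below it, and miR-222 (-0.81) lay above the median of -1.11.

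miR-221* was lower in all 4 SK-HEP-1 pairs, as were 125 of 196 tested miRNAs (63.8%). Its log2 ratios were -1.90 and -2.14 in the first batch, then -2.13 and -0.22 in the second.

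**Figure D2:**
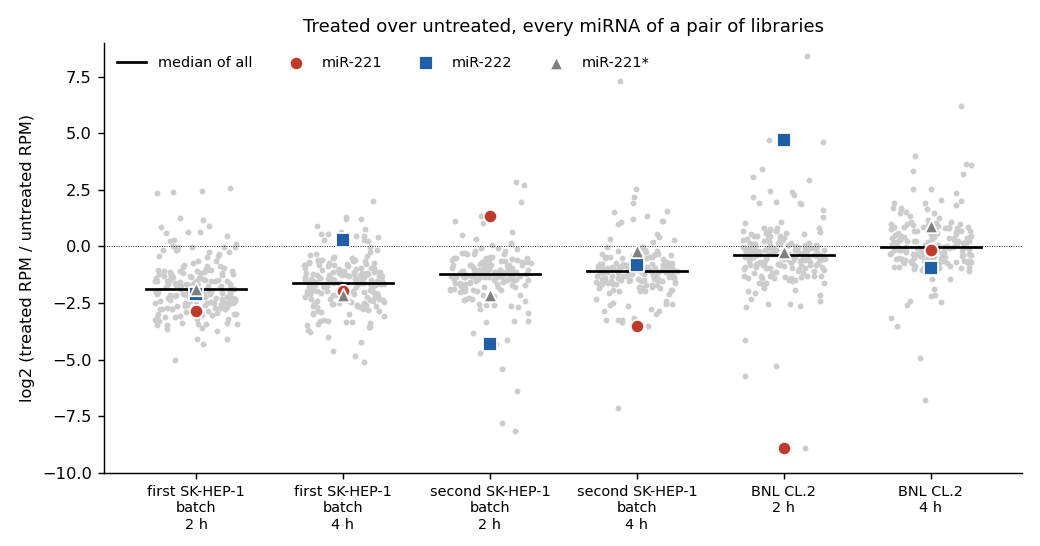
log2 ratio of treated to untreated RPM for every miRNA with reads in both libraries and at least 1 RPM in either (grey points), by pair of libraries, with the median as a black line and the cluster marked. Most SK-HEP-1 miRNAs lie below 0, with medians of -1.86 to -1.11. miR-221 lies above 0 only in the second SK-HEP-1 batch at 2 h. miR-222 lies above 0 only in the first SK-HEP-1 batch at 4 h and in BNL CL.2 at 2 h.

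Across the 8 SK-HEP-1 libraries the change was tested by edgeR's quasi-likelihood fit with terms for batch and time. Treated minus untreated, the log2 fold change of miR-221 was -0.96 ± 1.19 (SE, adjusted p = 0.493) and that of miR-222 was -1.53 ± 0.91 (adjusted p = 0.198). The median of all tested miRNAs was -1.37, so that 78.6% changed to a lower value than miR-221 and 40.3% to a lower value than miR-222. miR-221* gave -1.44 ± 0.64 (adjusted p = 0.113), and 0.045 when scaled to the miRNA total. None of these passed an adjusted p of 0.05, nor did any of the 196 miRNAs (0%). At an unadjusted p under 0.05 there were 91, all lower (46.4%), and DESeq2 called 95 after adjustment, neither member included. Scaled to the miRNA total in place of quality reads, which moved the median of all miRNAs to 0.10, miR-221 turned to 0.54 and miR-222 came to -0.02.

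At 2 h the fitted change of miR-221 was 0.57 ± 1.48 (adjusted p = 0.774) and at 4 h it was -2.34 ± 1.47 (adjusted p = 0.337). For miR-222 it was -2.73 ± 1.25 at 2 h (adjusted p = 0.219) and -0.51 ± 1.11 at 4 h (adjusted p = 0.761). The difference between the 4 h and 2 h changes, -2.91 ± 2.13 for miR-221 and 2.22 ± 1.63 for miR-222, did not pass (adjusted p = 0.954 each by edgeR), and that of miR-221 became 1.18 without 2T of the second batch. No miRNA was called at 2 h, at 4 h or for that difference (0% each). At an unadjusted p under 0.05 there were 44 (22.4%), 25 (12.8%) and 7 (3.57%), and DESeq2 called 6, 6 and 0 after adjustment. Without extract, 4U against 2U, miR-221 gave -0.22 ± 1.42 and miR-222 gave 1.17 ± 1.18 (adjusted p = 0.996 and 0.958 by edgeR), with 0 of 196 miRNAs called, 10 at an unadjusted p under 0.05 (5.1%) and 4 by DESeq2.

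A single library set much of this. Without 2T of the second batch, the change of miR-221 over both times became -2.95 (adjusted p = 0.107) and its change at 2 h became -3.75 in place of 0.57. Without 4U of the second batch, the change of miR-222 at 4 h became 1.37 in place of -0.51. The coefficient of variation between libraries in the model was 0.971 for miR-221 and 0.799 for miR-222, against 0.678 overall.

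**Figure D3:**
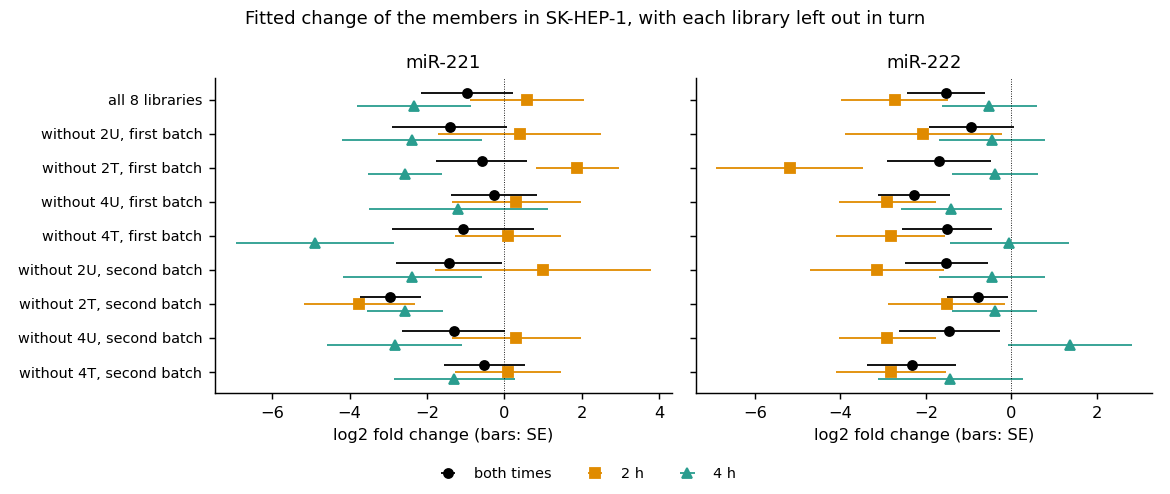
Fitted log2 fold change of miR-221 and miR-222 in SK-HEP-1 (horizontal axis; bars are SE), treated minus untreated, for both times, 2 h and 4 h, with all 8 libraries and with each left out in turn. miR-221 over both times lies between -2.95 and -0.27 and miR-222 between -2.34 and -0.78.

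A ratio within a library needs no scaling, and the sisters share a transcript, so their ratio was followed next. Reads of miR-222 per read of miR-221 in 2U, 2T, 4U and 4T were 0.0460, 0.0775, 0.0243 and 0.118 in the first batch. In the second batch they were 0.0430, 0.000855, 0.409 and 2.70. The 2U libraries of the batches were close, and the second batch then spread in both directions, with miR-222 in excess in 4T alone. The mean log2 ratio was -3.91 ± 1.79 untreated and -3.88 ± 4.79 treated (SD, n = 4 each). The difference of 0.03 had an exact two-sided permutation p of 1 within batches, where 36 arrangements allow no p below 0.0556. It was adjusted to 1 over 5 such tests in all.

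Reads of miR-221 per read of miR-221*, the 2 strands of one hairpin, were 19.3, 9.92, 37.1 and 41.3 in the first batch. In the second batch they were 75.3, 835, 34.3 and 3.46. The extremes of the second batch were its treated libraries, where miR-221 was at its highest and lowest and the passenger strand had 7 and 24 reads. Those low counts limit the ratios.

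As a share of miRNA reads, miR-221 took 0.0577 to 0.231% in the first batch, and, for the second, 0.418% of 2U, 2.66% of 2T, 0.256% of 4U and 0.0479% of 4T. In 2T of the second batch it was the miRNA at rank 7 of 239. The mean share was 0.251 ± 0.131% untreated and 0.731 ± 1.29% treated (SD, n = 4, exact permutation p = 0.944). Without the 2 h pair of the second batch the means were 0.195% untreated and 0.0885% treated, and as log2 percents the difference over all pairs was -0.26. miR-222 took 0.00227 to 0.129%, with means of 0.0333 ± 0.0481% untreated and 0.0387 ± 0.0608% treated (exact permutation p = 0.833). Both p-values were two-sided and were adjusted to 1 over the 5 tests.

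**Figure D4:**
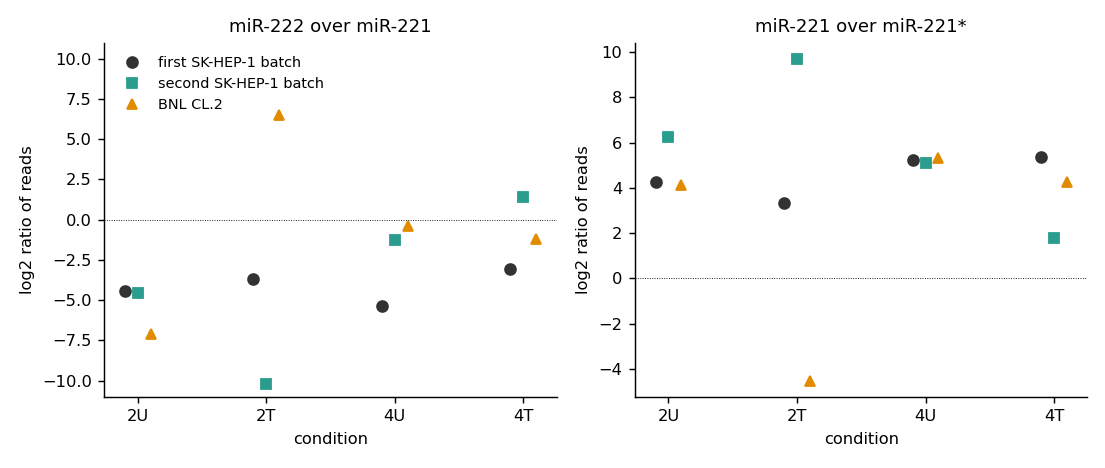
log2 ratio of reads within each library, miR-222 over miR-221 (left) and miR-221 over its passenger strand miR-221* (right), by condition, 1 point per library. In 2T the points split widest, with miR-222 over miR-221 at -10.19 in the second SK-HEP-1 batch and 6.53 in BNL CL.2.

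BNL CL.2 served the study as the comparison line. Its miR-221 had 810 reads for 2U (137 RPM), 3 for 2T (0.284 RPM), 1243 for 4U (141 RPM) and 1130 for 4T (127 RPM). Its miR-222 had 6 reads for 2U (1.01 RPM), 278 for 2T (26.3 RPM), 942 for 4U (107 RPM) and 486 for 4T (54.7 RPM). A single library, 2T, was thus almost without miR-221, and another, 2U, was almost without miR-222. The passenger strand miR-221* had 46, 69, 31 and 59 reads and was present where miR-221 was not. The reads behind these rows were not examined here, and every BNL CL.2 ratio at 2 h rests on them.

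In BNL CL.2 treated miR-221 was 0.00208 of untreated at 2 h (0.000428 to 0.00610), the lowest ratio of 194 miRNAs, and 0.901 at 4 h (0.831 to 0.978). miR-222 was 26.0 times the untreated level at 2 h (11.8 to 71.5) and 0.511 at 4 h (0.458 to 0.571). At 2 h, 21.6% of the BNL CL.2 miRNAs fell to 50% or less and 9.28% rose at least 2-fold. The summed reads of both sisters were 816 for 2U and 281 for 2T, which made the level of 2T 0.193 of 2U (0.168 to 0.222). With no replicate, these intervals cover counting error only.

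The paired log2 ratio averaged -1.76 ± 2.16 for miR-221 in SK-HEP-1 (SD, n = 4 pairs) and -4.53 in BNL CL.2 (n = 2 pairs). The difference, SK-HEP-1 minus BNL CL.2, was 2.77 (exact permutation p = 0.467, two-sided). For miR-222 the averages were -1.73 ± 1.98 and 1.87, and the difference was -3.60 (exact permutation p = 0.267). The 15 arrangements allow no p below 0.0667, and cell line, species and sequencing run cannot be told apart. They count the 2 h and 4 h pairs of a batch as separate units, although these are not replicates of a line. Without the 2 h pair of BNL CL.2 the miR-221 difference became -1.61.

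The spread of the members within a table was set beside that of other miRNAs. Highest over lowest RPM among the 4 libraries was 9.58 for miR-221 and 4.31 for miR-222 in the first SK-HEP-1 batch, where the median over miRNAs averaging 10 RPM or more was 6.99. In the second batch it was 58.5 and 94.4 beside a median of 3.79, and 12.6% and 10.3% of 87 miRNAs spread at least as wide. In BNL CL.2 it was 497 and 106 beside a median of 2.20, with 4.59% and 8.26% of 109 miRNAs as wide. Those shares count as wider 3 miRNAs in each of the latter tables that had a library at 0, which the medians leave out. miR-221* spread 2.20-fold in BNL CL.2, the same as the median, though its mean of 6.11 RPM was below the 10 RPM of the miRNAs compared. The first batch therefore differed from the other tables in that its members spread much as other miRNAs did, a difference that was not tested. In that batch miR-222 averaged 3.90 RPM and so was itself outside the set of miRNAs compared.

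Among the 196 tested miRNAs the pattern over the 8 SK-HEP-1 libraries (log2(RPM + 1)) was most like that of miR-221 for miR-149 (r = 0.77), miR-27b (0.75), miR-340* (0.67), miR-4286 (0.66) and let-7a-2* (0.66). For miR-222 they were miR-20a (0.71), miR-30a* (0.62), miR-34a* (0.61), miR-10a (0.58) and miR-26a (0.58). miR-221 and miR-222 gave r = -0.40 with each other (Spearman -0.40). For miR-221 that was rank 194 of the other miRNAs and for miR-222 rank 190. miR-221* gave 0.07 with miR-221, and its own closest pattern was that of miR-148b (0.96). These values describe 8 libraries that share treatment, time and scaling, and no test was made.

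CDKN1B was at 0.690 FPKM in 2U, listed at 0 in 2T, and at 1.46 FPKM in 4U and 0.731 in 4T. Of the genes above 0 in a library, 47.4% were lower than CDKN1B in 2U, 48.6% in 4U and 38.4% in 4T. The lowest value above 0 was 0.0001 FPKM in 2U and 2T but 0.2 FPKM in 4U and 4T. Values listed at 0 and shares of genes above 0 are therefore not alike between the times. At 4 h treated CDKN1B was 0.500 of untreated, a log2 ratio of -0.999 beside a median of -0.18 over 8651 genes, and 21.0% of them had a lower ratio. Between the 2 untreated libraries, 4U over 2U, its log2 ratio was 1.08, beside a median of 0.50 over all genes above 0 in both. That comparison crosses the unlike lowest values of the 2 times. Of 1206 genes with 0.5 to 1 FPKM in 2U, 18.3% were listed at 0 in 2T. Genes above 0 numbered 10691 (2U) and 8454 (2T) at 2 h, against 9550 (4U) and 9773 (4T) at 4 h. The study's own gene numbers equal those of both 4 h libraries. Its number for 2U is smaller and its number for 2T is larger than found here. The 2 h values used here thus differ from those the study counted, which limits every 2 h FPKM and ratio given. The cause was not tested. Whether a listed 0 is an absent mRNA, a value under a cut-off or a failed estimate was not tested either. DICER1, the enzyme that cuts miRNA hairpins, was also listed at 0 in all 4 libraries (singled out after its values were seen). The study reports Dicer protein in SK-HEP-1 by Western blot, lower after AcFBE. The listed 0 of DICER1 is therefore not taken to show that the gene was silent. The FPKM carry no counts and there was no replicate, so no error is given.

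The 4 h pair is where both sides of the cluster had values. CDKN1B was at 0.500 of untreated there, miR-221 at 0.252 and 0.0867 in the 2 batches, and miR-222 at 1.23 and 0.572. The mRNA and first-batch miRNA libraries were run on the same model of sequencer, and the sources used here do not say whether they came from the same cells.

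Other mRNAs reported as targets of the family were described as a list of 22 with CDKN1B. At 2 h, 13 were above 0 in either library and 7 in both, of which 3 stood at 50% or less of untreated and 0 at 2-fold or more. Over all genes above 0 in both, 18.4% stood at 50% or less and 23.4% at 2-fold or more. The median log2 ratio of the 7 was -0.84 beside 0.07 for all genes. At 4 h, 9 were above 0 in both, 1 stood at 50% or less (all genes 20.9%), 0 at 2-fold or more (all genes 12.6%), and the median was -0.65 beside -0.18.

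TIMP3, an inhibitor of matrix metalloproteinases, was at 2.40, 0.715, 2.19 and 1.28 FPKM in 2U, 2T, 4U and 4T. ICAM1, an adhesion receptor for leukocytes, was at 2.63, 0.575, 1.85 and 1.18 FPKM. DDIT4, which restrains mTOR signalling, was at 5.17, 1.43, 3.55 and 0.690 FPKM. These 3 had lower values in the treated library at both times. PPP2R2A, a regulatory subunit of protein phosphatase 2A, was lower at 2 h (4.38 to 2.45 FPKM) and higher at 4 h (1.51 to 2.55 FPKM).

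A list of 17 genes held the kinases and cyclins that p27 meets, its turnover machinery, the related inhibitor CDKN1A, and the transcription factors FOXO1 and FOXO4, which were listed at 0. In both comparisons 14 were above 0 in both libraries, 6 stood at 2-fold or more (all genes 23.4% at 2 h and 12.6% at 4 h) and 3 at 50% or less (all genes 18.4% and 20.9%). Medians were 0.56 at 2 h and 0.62 at 4 h, beside 0.07 and -0.18 for all genes. With at least 1 FPKM in both libraries, 10 genes were left at 2 h, with a median of 0.19. Of these, 2 stood at 2-fold or more (20%, all genes 17.5%) and 3 at 50% or less (30%, all genes 17.2%). At 4 h 12 were left, 5 at 2-fold or more and 3 at 50% or less, with a median of 0.49. The excess at 2-fold or more at 2 h thus rested mostly on genes under 1 FPKM in a library. CDKN1A, which encodes the related inhibitor p21, was at 193, 20.9, 89.1 and 30.7 FPKM in 2U, 2T, 4U and 4T. CDK4, a kinase of early G1, was at 948, 444, 685 and 480 FPKM, and its partner CCND3, cyclin D3, was at 0.275 of untreated at 2 h and 0.0878 at 4 h. CCNA2, the S phase cyclin A2, was at 0.403, 5.09, 0.924 and 3.40 FPKM. CCNE1, cyclin E1, was 3.31-fold higher in the treated library at 2 h and 0.379 of untreated at 4 h. CDK2, the kinase of both cyclins, was at 1.59, 2.94, 3.70 and 3.86 FPKM.

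Among the turnover genes of that list, SKP2, the recognition subunit of the ligase that marks p27 for the proteasome, was at 0.872, 2.15, 1.02 and 3.23 FPKM, and its cofactor CKS1B at 80.5, 94.1, 61.0 and 115 FPKM. The scaffold genes SKP1, CUL1 and RBX1 had treated to untreated ratios of 2.25, 2.21 and 2.51 at 4 h and of 1.12, 0.682 and 2.05 at 2 h. COPS5, which carries p27 out of the nucleus, was at 9.23, 52.9, 12.3 and 61.7 FPKM.

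Of the transcription factors named as regulators of the host transcript, FOSL1 and JUN, which form AP-1, and RELA of NF-kB had the higher levels. FOSL1 was at 2134, 532, 1149 and 324 FPKM, JUN at 13.4, 2.93, 20.2 and 3.72 FPKM and RELA at 18.1, 4.48, 14.8 and 3.35 FPKM in 2U, 2T, 4U and 4T. All 3 were lower in the treated library at both times. Of the 4 genes of this list with values, 4 at 2 h and 3 at 4 h stood at 50% or less, where all genes gave 18.4% and 20.9%. The host transcript MIR222HG had no row, and rows for MIR221 and MIR222 were listed at 0. Among the RNA-binding cofactors and decay enzymes of the cluster, DND1, which binds mRNA near miR-221 sites, was at 0.579, 0.648, 1.14 and 0.944 FPKM.

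**Figure D5:**
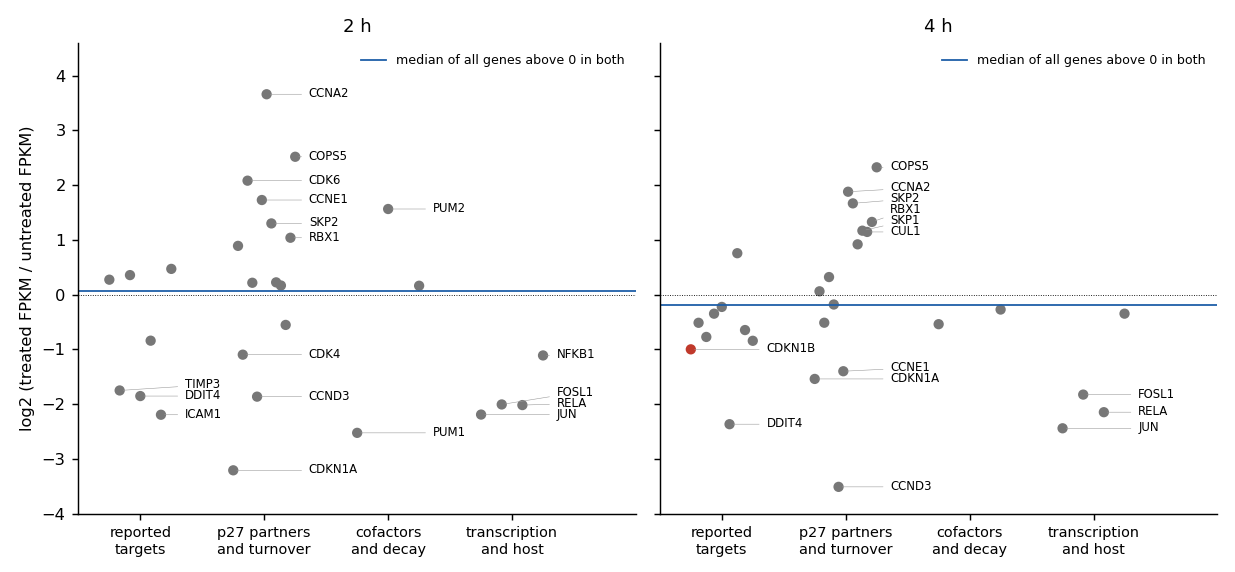
log2 ratio of treated to untreated FPKM at 2 h (left) and 4 h (right) for members of 4 mRNA lists above 0 in both libraries, 1 point per gene, with genes at 1 or beyond named and CDKN1B in red. CDKN1B stands at -0.999 at 4 h and has no point at 2 h, where the treated library lists it at 0, and the blue line is the median of all genes (0.07 and -0.18).

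Genes that hold the 8mer in their 3′ UTR give a list drawn by sequence alone. Of the 22314 symbols, 16615 matched an annotated 3′ UTR, and 594 of these held an 8mer. At 2 h, 215 were above 0 in both libraries, with a median log2 ratio of 0.20, beside 0.05 for 6049 genes with no site. At 4 h, 216 gave a median of 0.02 beside -0.24 for 6222 genes with no site. With and without the site, 28.4% and 22.9% of genes stood at 2-fold or more at 2 h, and 16.7% and 18.4% at 50% or less. For the 4 h pair those shares were 13.0% and 12.1%, then 7.87% and 23.2%. Genes with an 8mer were less abundant, as 87 of the 216 had at least 1 FPKM in both libraries against 3617 of the 6222. At that level the 4 h medians were 0.03 and -0.36, and the part of abundance in the medians was not tested further. A site was counted anywhere in the 3′ UTR, so a longer 3′ UTR has more room for one. The lengths were not matched between the groups, and their part was not tested. With 1 library per condition, these medians compare libraries and not conditions.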

How the data were processed

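Per the labels and the methods, small RNA reads of 16 to 30 bases were trimmed with cutadapt and aligned with Bowtie 0.12.7 to miRBase after tRNA, rRNA and repeats were removed, and the authors deposited counts per miRNA of at least 2 reads, without normalization. The deposited mRNA values are FPKM from TopHat and Cufflinks on hg19. The miRNA libraries of BNL CL.2 are titled as SOLiD 5500xl, whereas the series text names SOLiD 3. Samples were grouped by cell line, treatment, time and sequencer as labelled. The second SK-HEP-1 batch was a repeat on other cells. Batch was a term of the main fits and a stratum of the ratio and share tests. A shift shared by all libraries of a batch is thus taken out of those p-values. They measure the spread that remains within batches, and cell batch and sequencer cannot be told apart.

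Counts were divided by the quality reads that the study lists. miRNAs in both SK-HEP-1 tables (263) with a mean of at least 1 RPM (196) were tested by the quasi-likelihood method of edgeR (4.0.16, under R 4.3.3) with batch as a term and Benjamini-Hochberg adjustment. Libraries of a batch deviated together (correlations of 0.42 to 0.72 over 6 pairs of conditions). The labels name the sequencer only, and the second batch of cells is named in the study's methods. Alternatives were other scalings and filters, DESeq2 1.42.0, limma 3.58.1 with a pseudocount of 1 RPM, no batch, pairs as blocks and each library left out. Ratio and share tests were exact permutations (scipy 1.17.1, Python 3.11.15). Intervals are exact (ratios) at 95% and cover counting error only. The SE of an edgeR fit was derived from the F statistic of its test, as the absolute log2 fold change over the square root of F. Plots were drawn with matplotlib 3.10.9. Scripts were tested on simulated data. Genes named were the members, passenger strands, the 5 miRNAs most alike to each, and list genes with at least 1 FPKM in a library of a pair, beside the markers of the tissue check, and other genes outside this rule are marked. The members and lists were chosen with earlier results of these data known. Names without an arm were matched to the 3p arm. 3′ UTRs and positions are from GENCODE on GRCh37.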

Additional observations from a re-analysis of the deposited data

Results flagged for a closer look

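Among 4 SK-HEP-1 libraries of one treatment, a library was taken to stand apart where its gap to the nearest other, as a part of the range, exceeded the 95% critical value of Dixon, which chance gives in about 1 of 20 groups of independent libraries. These groups mix times and batches, and RPM and percent repeat the same libraries, so that rate is only a guide. Of 14 groups of 4, 5 did so. miR-221 in 2T of the second batch did so at 344 RPM and at 2.66% of miRNA reads. miR-222 in 4U of the second batch did so at 27.8 RPM and at 0.105% of miRNA reads, and miR-222 in 4T of that batch at 0.129% of miRNA reads. All 5 came from the second batch.

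Opposite directions appeared in 4 comparisons, none of which was tested, since BNL CL.2 had 1 pair per time. In BNL CL.2, the log2 ratio of treated to untreated miR-222 was 4.70 at 2 h and -0.97 at 4 h. At 2 h that value of 4.70 stood against -2.11 and -4.31 in the SK-HEP-1 pairs. The passenger strand miR-221* was at -0.25 at 2 h and 0.92 at 4 h in BNL CL.2, and at 4 h the SK-HEP-1 pairs stood at -2.14 and -0.22.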

How the results depend on the processing

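Over both times, 0 miRNAs passed with edgeR, batch as a term. The count was 100 when scaled to reads left after the tRNA filter, 20 with a mean of at least 10 RPM, 95 with DESeq2, 43 with limma on log2(RPM + 1) and 60 with the pair as block, and neither member was among them. At 2 h DESeq2 called 6 and limma 3, at 4 h DESeq2 called 6, and for untreated 4 h against 2 h DESeq2 called 4. DESeq2 gave no adjusted p to some miRNAs at 4 h, and these stay uncalled. With a mean of at least 10 RPM miR-222 was not tested. Without batch as a replicate block (no replicate block), 0 passed, with miR-221 at -0.90 and miR-222 at -1.70, and this changed no call.

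Scaling turned signs. Over both times miR-221 was 0.54 scaled to the miRNA total and 0.36 with TMM, and miR-221* was 0.045 scaled to the miRNA total. At 4 h miR-222 was 0.72 and 0.67 in the same order, and miR-221* was 0.28 and 0.26. For untreated 4 h against 2 h, miR-221 was 0.32 and miR-221* was 0.35 scaled to the miRNA total. miR-221 at 2 h was -0.73 with limma. miR-221* passed over both times when scaled to reads after the tRNA filter (-1.73, adjusted p = 0.0459 by edgeR). Summing the reads of both members, chosen after seeing the data, gave -0.91 over both times and 0.0024 for untreated 4 h against 2 h, where miR-221 alone was at -0.22.

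When libraries were dropped one by one, miR-221 ranged from -2.95 to -0.27 over both times, -3.75 to 1.89 at 2 h and -4.90 to -1.20 at 4 h. Its difference of 4 h and 2 h changes ranged from -4.99 to 1.18, and untreated 4 h against 2 h from -1.13 to 0.51. miR-222 ranged from -2.34 to -0.78, -5.18 to -1.52, -1.43 to 1.37, 1.12 to 4.79 and -0.52 to 2.25 in the same order. miR-221* ranged from -2.13 to -1.13, -2.71 to -1.38, -2.40 to 0.016, -0.42 to 2.00 and -0.70 to 0.31. Where this left 1 library in a condition, that library was assumed to vary like the others. The adjusted p of the members was 0.0914 to 1 over all edgeR, DESeq2 and limma alternatives.

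The difference of the log2 ratio of miR-222 to miR-221 was -0.87 to 1.92 with each pair left out. The share of miR-221 was -0.11 to 0.71 percentage points higher in treated libraries with each pair left out, and -0.26 as log2 percents. That of miR-222 was -0.00083 to 0.0125 percentage points, and -0.24 as log2 percents. The SK-HEP-1 minus BNL CL.2 difference was -1.61 to 7.15 for miR-221 and -6.43 to -0.77 for miR-222 with each pair left out.

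In BNL CL.2 at 4 h, scaling to reads after the tRNA filter gave log2 ratios of 0.031 for miR-221 and -0.79 for miR-222. CDKN1B at 4 h was -0.51 with a pseudocount of 1 FPKM and -0.69 after the median of genes with at least 1 FPKM in both was taken off. The cause of these shifts was not tested. Depth limits miR-222 and miR-221*, which had 5 to 13 reads in some treated libraries.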
